A study of Homo sapiens with 27 samples.

Results

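The data compared here are 6 polyA RNA-seq libraries of parental Panc1 cells, chosen by their labels from a series of 27 libraries. All 6 were kept for 48 hours at 1% O2. In 3 of them the medium was regular medium (DMEM with fetal bovine serum and penicillin-streptomycin), and in the other 3 it was TIFM, a medium built to resemble the interstitial fluid of pancreatic tumours. Panc1 is a human cell line, long established, from a pancreatic ductal adenocarcinoma. The parental cells carry no ARNT edit. The rest of the series holds parental cells in regular medium at 20% O2 and a pair of CRISPR-Cas9 knockout lines of ARNT (clone A and clone B, each 1 clone) under the same conditions, with 3 libraries in each of 9 groups. ARNT is the partner subunit that the hypoxia-inducible factors HIF1A and EPAS1 need to bind DNA. TIFM was used only at 1% O2, so a medium effect in normoxia was not measured, and the labels do not list what TIFM contains.

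Cells read the supply of nutrients through a few well-known control systems. When sterols run short, the SREBP transcription factors (SREBF1 and SREBF2) are cut free from the endoplasmic reticulum and switch on genes for cholesterol uptake, cholesterol synthesis and fatty acid synthesis, and when sterols are plentiful these genes are shut down. When an amino acid is scarce or the endoplasmic reticulum is under load, phosphorylation of eIF2 raises translation of ATF4, which switches on genes for amino acid synthesis, amino acid uptake and tRNA charging. At low oxygen the hypoxia-inducible factors switch on glucose uptake, glycolysis and vessel-forming signals. Pancreatic tumours are poorly perfused, and their cells are known to use all of these systems.

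The 6 libraries held 28313576 to 38341713 counts, against 26057022 to 38341713 over the whole series. Levels are given as CPM, counts scaled to library size with factors from the trimmed mean of M-values (TMM). Replicates were tighter in regular medium than in TIFM, with a biological coefficient of variation of 5.01% against 17.4%. The first principal component of the 6 libraries took 76.0% of their variance and separated the media, and TIFM replicate 2 lay farthest out on it. The labels do not say whether replicates came from separate cultures, and the spread that the p-values measure may then be technical. Ductal and epithelial markers were present in all 6 libraries, with KRT8 between 1298 and 4783 CPM and EPCAM between 20.5 and 38 CPM, and PRSS1 (acinar), INS and SST (endocrine) and CD3E (T cells) had no count in any of the 6. Other markers of these classes had some: CPB1, an acinar enzyme, had 1 count over the 3 regular-medium libraries and 6 over the 3 in TIFM, CHGA, an endocrine marker, 7 and 50, and CD14, a monocyte marker, 52 and 75. CD68, a lysosomal protein used as a macrophage marker, lay between 91.2 and 118.6 CPM. The part of other cell types in the results was not tested. ARNT was read at 74.1, 67.5 and 72.6 CPM in regular medium and at 68.3, 59.3 and 64.0 CPM in TIFM (log2 -0.16 ± 0.09, adjusted p = 0.14).

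TIFM changed a large part of the transcriptome. Of 13943 genes tested, 5881 were called at an adjusted p under 0.05 (42.2%), of which 3033 were higher (21.8%) and 2848 lower (20.4%) in TIFM. At least 2-fold changes were called for 799 genes upward (5.73%) and 858 downward (6.15%), and the median log2 difference of all genes was -0.003. In 4009 genes (28.8%) all 3 TIFM libraries lay above all 3 regular-medium libraries, and in 4068 (29.2%) all lay below. Among the gene lists, cholesterol genes were nearly all lower, amino acid response and ribosomal protein genes were mostly higher, and lists such as mitosis or interferon-stimulated genes held calls in both directions. Adjusted p-values are from edgeR's quasi-likelihood test over all tested genes, and ± after a log2 difference is its standard error.

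**Figure D1:**
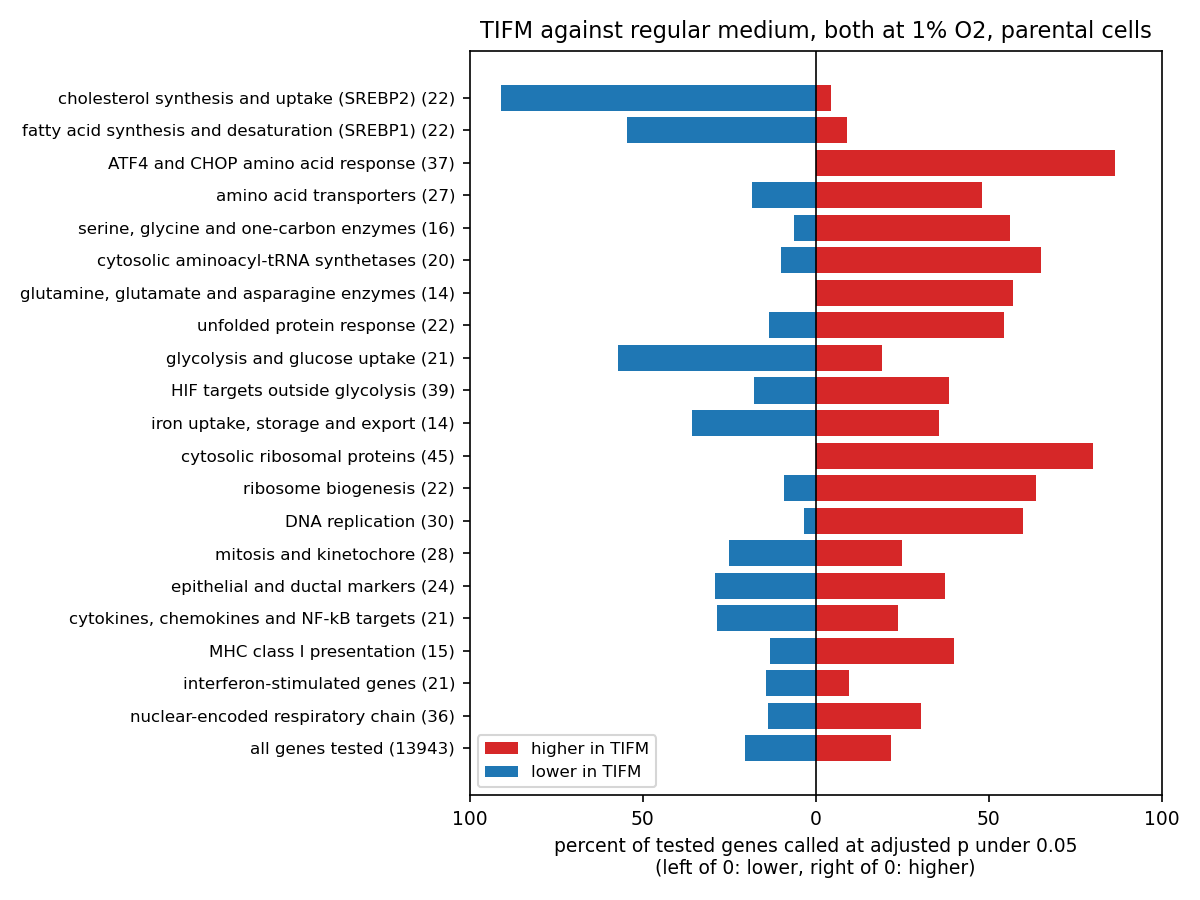
Bars show, for 20 gene lists and for all genes tested, the percent of tested genes called higher (right of 0) or lower (left of 0) in TIFM than in regular medium at 1% O2, with the number tested in brackets. Of the cholesterol list 20 of 22 members lie on the lower side, and of the amino acid response list 32 of 37 on the higher side, against 20.4% lower and 21.8% higher over all genes.

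Cholesterol synthesis and uptake had the lowest median of the 43 gene lists. Of 22 tested members 20 fell, 1 rose and 1 was not called, with a median log2 of -1.93. The 20 members that fell did not overlap between media. The fall covered the regulator and enzymes from the first to the last steps of the pathway.

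INSIG1, which holds the SREBP complex in the endoplasmic reticulum and is itself an SREBP target, was at 345, 331 and 332 CPM in regular medium and at 46.7, 38.8 and 49.2 CPM in TIFM (log2 -2.90 ± 0.17, adjusted p = 1.9e-12). STARD4, a carrier of cholesterol between membranes, was at 111, 109 and 107 CPM in regular medium and at 13.5, 8.93 and 10.7 CPM in TIFM (log2 -3.30 ± 0.21, adjusted p = 1.1e-11). For both genes every TIFM library was far below every regular-medium library, and the replicates of each medium lay close together.

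Along the synthesis pathway, HMGCS1, which makes HMG-CoA, went from 210.4, 209 and 208 CPM to 48.3, 41.7 and 48.0 CPM (log2 -2.18 ± 0.21, adjusted p = 1.1e-08). Several later steps fell as well: MVD by 2.51, FDFT1 (squalene synthase) by 2.13, LSS (lanosterol synthase) by 2.28 and MSMO1 by 2.37 on the log2 scale. TM7SF2, a sterol reductase, fell by 2.88 on the log2 scale. At the end of the pathway DHCR7, which makes cholesterol from its direct precursor, went from 258, 255 and 275 CPM to 36.7, 41.5 and 36.6 CPM (log2 -2.78 ± 0.15, adjusted p = 4.3e-13). PMVK (phosphomevalonate kinase) was the member that was not called, at 18.0, 20.3 and 21 CPM in regular medium and at 15.5, 24.8 and 14.0 CPM in TIFM (log2 -0.13 ± 0.17, adjusted p = 0.59).

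NPC1L1 was the member that rose. It encodes the sterol uptake transporter of gut and liver, and it was near 0 without TIFM, at 0.1, 0.0754 and 0.0562 CPM in regular medium and at 3.23, 2.46 and 3.19 CPM in TIFM (log2 5.18 ± 0.49, adjusted p = 8.3e-09). The groups did not overlap. NPC1L1 was under the filter on low counts at its regular-medium level and was tested only through libraries where it was higher. Its log2 rise in TIFM was 5.25 in clone A and 4.19 in clone B. Of the cholesterol efflux and oxysterol list, 2 of 8 members rose (25%, near the 21.8% of all genes) and none fell, with a median log2 of -0.03. ABCA1, which exports cholesterol and is switched on by oxysterols through LXR, was one of them, going from 7.89, 7.44 and 6.52 CPM to 15.5, 12.3 and 13.2 CPM (log2 0.91 ± 0.17, adjusted p = 0.0001).

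SREBF2, the master regulator of the list, is also its own target through a sterol element in its promoter, and is shown for that reason. It was read at 138, 128 and 141 CPM in regular medium and at 67.3, 61.7 and 62.4 CPM in TIFM (log2 -1.09 ± 0.11, adjusted p = 3.1e-08), and is named outside the rule for named genes, after its values were seen. A window of 100 bases around its match to the sterol motif TCACNCCAC (GRCh38.p14, chr22:41832926-41833025, plus strand, RefSeq), which begins 133 bases before the start site, is given 5′ to 3′ in the direction of transcription, with the match in capitals. The window does not reach the start site.
SREBF2: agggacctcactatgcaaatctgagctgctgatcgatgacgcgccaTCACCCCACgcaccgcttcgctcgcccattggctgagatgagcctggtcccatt
The motif was searched on both strands in the 250 bases before each start site. The RefSeq set holds a promoter for 15 of the falling cholesterol genes, and 1 of them had it (6.67%), against 1.09% of all 27305 genes of that set. SREBF2 was that member, so the share rests on 1 gene. Of 10 falling fatty acid genes with a promoter in the set none had the motif, and of 2 rising ones 1 did. Over all genes with a promoter there, 1.015% of those that fell and 1.258% of those that rose had it.

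Fatty acid synthesis genes fell in part. Of 22 tested members 12 fell, 2 rose and 8 were not called, with a median log2 of -1.05. FADS2 (the delta-6 desaturase that starts the synthesis of long polyunsaturated fatty acids, chromosome 11, 61792980 to 61867354, plus strand, GRCh38) had the largest fall of the list. It was read at 669, 625 and 685 CPM in regular medium and at 45.7, 46.5 and 43.4 CPM in TIFM (log2 -3.87 ± 0.15, adjusted p = 2.3e-15), with no overlap. SCD, the desaturase that makes oleate and needs oxygen for it, was highly expressed, at 8652, 7769.5 and 8503 CPM in regular medium and at 2034, 1446 and 2002 CPM in TIFM (log2 -2.18 ± 0.14, adjusted p = 1.2e-11).

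The enzymes that supply and build the chains fell as well. FASN, fatty acid synthase, went from 574, 481 and 559 CPM to 97.7, 92.4 and 97.2 CPM (log2 -2.49 ± 0.14, adjusted p = 1.2e-12), and ACLY, which makes cytosolic acetyl-CoA from citrate, from 801, 737 and 781 CPM to 137, 137 and 131 CPM (log2 -2.52 ± 0.11, adjusted p = 1.6e-14). ACSS2, which makes acetyl-CoA from acetate, went from 84.2, 72.9 and 87.1 CPM to 9.91, 12.6 and 10.5 CPM (log2 -2.89 ± 0.16, adjusted p = 1.7e-12). SREBF1, the regulator of the list, fell by 1.21, ACSL3 by 1.33, ACACB by 1.35, LPIN1 by 1.20 and PNPLA3 by 2.55 on the log2 scale. The 2 members that rose were MID1IP1, a partner of acetyl-CoA carboxylase (log2 1.09 ± 0.16, adjusted p = 9.3e-06), and FADS3 (log2 0.65 ± 0.19, adjusted p = 0.0066). The call of FADS3 was lost without TIFM replicate 2 (edgeR adjusted p = 0.058).

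Most of these genes were also below their normoxic level. The move from 20% to 1% O2 in regular medium changed 4212 genes (30.2%) and had raised 13 of the 22 cholesterol genes and 11 of the 22 fatty acid genes, against 15.4% of all genes. Hypoxic TIFM against normoxia changed 6995 genes (50.2%), and in it 21 of the 22 cholesterol genes and 15 of the 22 fatty acid genes were below their level in normoxic regular medium (24.2% of all genes were). SCD shows the pattern: it stood at 3280.2, 3462 and 3293 CPM in normoxia, more than doubled in hypoxia (log2 1.31 ± 0.14, adjusted p = 9.0e-08), and in hypoxic TIFM was below normoxia (log2 -0.87 ± 0.14, adjusted p = 9.3e-06). The hypoxia comparison and the TIFM comparison share the 3 hypoxic regular-medium libraries, so their values for a gene are not independent.

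**Figure D2:**
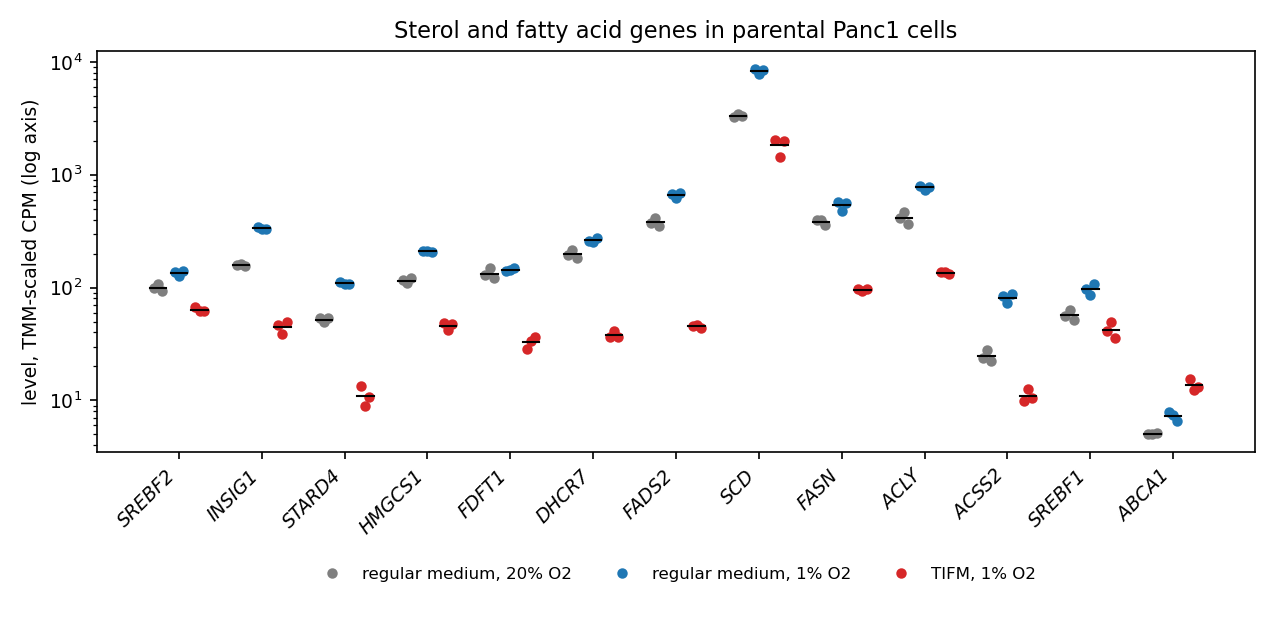
Points are the TMM-scaled CPM (log axis) of 13 sterol and fatty acid genes in the 9 parental libraries, and black lines are group means (n = 3). Levels at 1% O2 in TIFM lie below both regular-medium groups for every gene shown but ABCA1, the sterol exporter; FADS2 drops from between 625 and 685 CPM to between 43.4 and 46.5 CPM.

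The amino acid response rose in most of its members. Of 37 tested members of the ATF4 and CHOP list 32 rose, none fell and 5 were not called, with a median log2 of 1.33. ATF4 itself went from 212, 211 and 226 CPM to 488, 602 and 535 CPM (log2 1.32 ± 0.13, adjusted p = 1.6e-08), so its transcript more than doubled; its translation was not measured. TRIB3, an ATF4 target that restrains AKT, went from 47.9, 38.3 and 52.9 CPM to 110.1, 141 and 98.9 CPM (log2 1.33 ± 0.20, adjusted p = 1.2e-05, named after its values were seen). DDIT3, which encodes CHOP and stands for the death-prone arm of the response, stayed low at 1.13, 0.93 and 1.26 CPM in regular medium and at 1.68, 2.14 and 1.63 CPM in TIFM (log2 0.71 ± 0.27, adjusted p = 0.037). The call of DDIT3 was lost when any of 4 of the 6 libraries was left out (replicates 1 and 2 of each medium; edgeR adjusted p up to 0.136), and exons of another gene cover 39.6% of its own.

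CTH, the enzyme that makes cysteine from cystathionine, went from 10.7, 7.97 and 10.9 CPM to 69.3, 77.1 and 58.3 CPM (log2 2.79 ± 0.18, adjusted p = 1.1e-11). SLC7A11, the cystine importer, went from 82.5, 52.0 and 75.6 CPM to 400.5, 221 and 363 CPM (log2 2.23 ± 0.25, adjusted p = 1.5e-07), with replicate 2 the lowest in both media. CHAC1, which breaks down glutathione, went from 5.95, 6.28 and 8.41 CPM to 25.0, 33.3 and 22.5 CPM (log2 1.97 ± 0.20, adjusted p = 1.9e-08). In each of these genes the media did not overlap.

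PSAT1, of the serine pathway, went from 299, 247 and 314 CPM to 1027, 1045 and 957 CPM (log2 1.82 ± 0.12, adjusted p = 2.9e-11), and PHGDH, which starts that pathway, from 91.8, 80.4 and 98.0 CPM to 239, 294 and 224 CPM (log2 1.49 ± 0.15, adjusted p = 1.6e-08). ASNS, asparagine synthetase, went from 313, 279.8 and 338 CPM to 977, 1064 and 966 CPM (log2 1.69 ± 0.13, adjusted p = 2.1e-10), with 44.6% of its exon length shared with an overlapping gene. STC2, a secreted glycoprotein and target of both ATF4 and the hypoxia factors, went from 390.0, 357 and 396 CPM to 1245, 1281 and 1179 CPM (log2 1.70 ± 0.09, adjusted p = 2.5e-13). PPP1R15A, the phosphatase subunit that ends eIF2 phosphorylation, went from 30.0, 27.5 and 29.9 CPM to 116, 164 and 118 CPM (log2 2.19 ± 0.16, adjusted p = 8.8e-11).

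The members that were not called include SESN2, a leucine sensor, at 21.3, 18.2 and 24.5 CPM in regular medium and at 29, 37.2 and 21.6 CPM in TIFM (log2 0.46 ± 0.21, adjusted p = 0.084), and SLC38A2, the adaptive importer of neutral amino acids, at 2079, 2132 and 1801 CPM in regular medium and at 2546, 1413 and 2985 CPM in TIFM (log2 0.21 ± 0.29, adjusted p = 0.6). SLC38A2 was split by replicate: replicates 1 and 3 in TIFM were above regular medium and replicate 2 below. In regular medium hypoxia had already raised 24 of the 37 members, and in hypoxic TIFM 35 of the 37 were above normoxia, with a median log2 of 2.42 between those groups.

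The amino acid response element read by ATF4 is a composite site whose letters TGATGNAA were searched in the 250 bases before each start site, on both strands. The set holds a promoter for 25 rising members, of which 6 had it (24.0%). The motif was in 3.89% of all 27305 genes and in 3.82% of all rising genes with a promoter there. The list was drawn up as ATF4 and CHOP genes, so its higher share is not a result of TIFM. Windows are shown for 3 of the 6, because each belongs to a rising member of a different kind (a glutathione enzyme, a synthetase and a transporter): CHAC1 (GRCh38.p14, chr15:40953221-40953320, plus strand), ASNS (chr7:97872423-97872522, minus strand) and the neutral amino acid transporter SLC1A5 (chr19:46784858-46784957, minus strand), from RefSeq. Capitals mark the match, which in CHAC1 reads on the opposite strand. The match begins 209 bases before the start site in CHAC1, 68 in ASNS and 97 in SLC1A5.
CHAC1: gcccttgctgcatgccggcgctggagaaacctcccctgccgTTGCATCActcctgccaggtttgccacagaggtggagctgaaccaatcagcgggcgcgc
ASNS: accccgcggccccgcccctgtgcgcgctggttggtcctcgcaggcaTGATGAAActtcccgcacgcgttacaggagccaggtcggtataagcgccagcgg
SLC1A5: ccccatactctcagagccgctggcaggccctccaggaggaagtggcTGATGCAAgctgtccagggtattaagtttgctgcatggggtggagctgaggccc
A match is a description of these letters, and binding was not measured in these data.

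**Figure D3:**
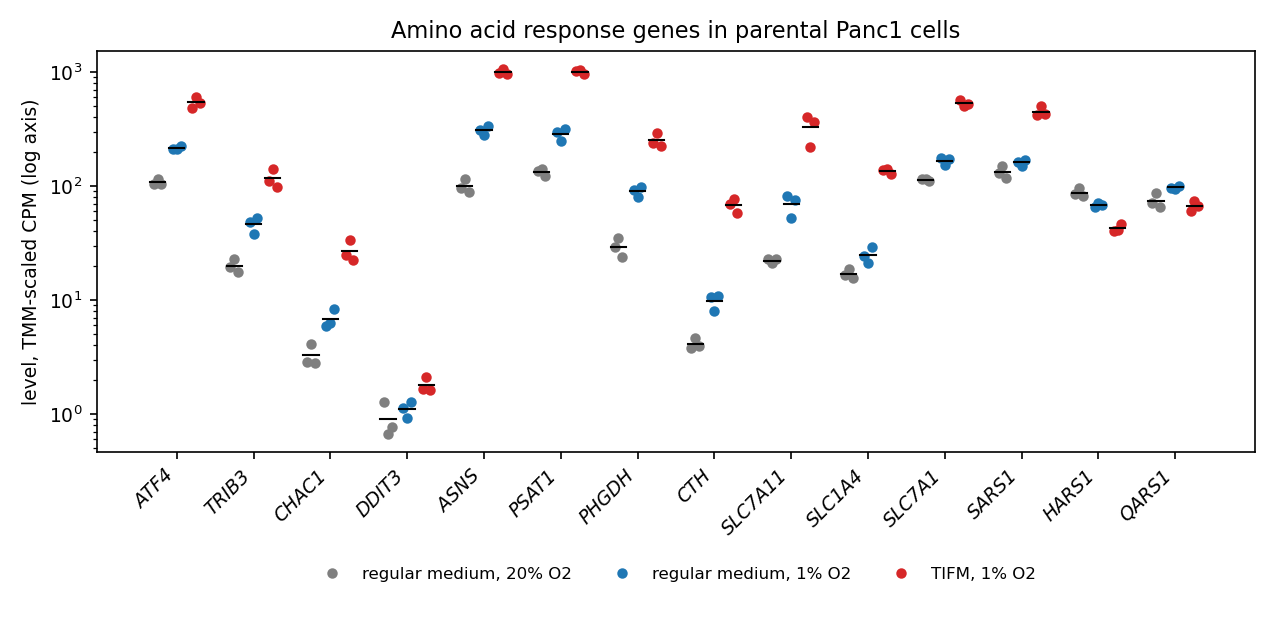
Points are the TMM-scaled CPM (log axis) of 14 amino acid response and tRNA synthetase genes in the 9 parental libraries, and black lines are group means (n = 3). From ATF4 to SARS1 the TIFM libraries lie above both regular-medium groups, while HARS1 and QARS1 lie below regular medium at 1% O2; DDIT3 stays near 1 to 2 CPM.

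Of 27 amino acid transporters 13 rose (48.1%, against 21.8% of all genes) and 5 fell (18.5%, against 20.4%), and without TIFM replicate 2 the falls were 3. SLC1A4, an importer of alanine, serine and cysteine, went from 24.4, 21.2 and 29 CPM to 138, 140.0 and 127 CPM (log2 2.44 ± 0.14, adjusted p = 2.2e-12), SLC1A5 from 53.3, 51.1 and 58.4 CPM to 163, 199 and 154 CPM (log2 1.67 ± 0.15, adjusted p = 2.9e-09) and SLC7A1, the arginine and lysine importer, from 176, 152 and 171 CPM to 566, 499.7 and 527 CPM (log2 1.67 ± 0.10, adjusted p = 2.7e-12). SLC3A2, the heavy chain shared by several importers, rose by log2 1.25. Among those that fell was SLC6A6, the taurine importer, which went from 623, 562 and 549 CPM to 363, 254 and 386 CPM (log2 -0.79 ± 0.21, adjusted p = 0.0033).

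Of 20 cytosolic aminoacyl-tRNA synthetases 13 rose (65%) and 2 fell (10%). SARS1, which charges serine tRNA, went from 163, 149.98 and 171 CPM to 416, 506 and 426 CPM (log2 1.48 ± 0.15, adjusted p = 2.7e-08), and WARS1, for tryptophan, from 173, 167 and 176 CPM to 403, 420.1 and 401 CPM (log2 1.25 ± 0.11, adjusted p = 1.9e-09). The 2 that fell were HARS1, for histidine (log2 -0.68 ± 0.11, adjusted p = 2.7e-05), and QARS1, for glutamine (log2 -0.53 ± 0.15, adjusted p = 0.0073). Among 16 serine, glycine and one-carbon enzymes 9 rose and 1 fell (2 without TIFM replicate 3); MTHFD2, of the mitochondrial folate pathway, rose (log2 1.15 ± 0.12, adjusted p = 5.7e-08).

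Among 19 arginine, proline and polyamine enzymes 9 rose (47.4%, against 21.8% of all genes) and 5 fell (26.3%, against 20.4%), with a median log2 of 0.25. Without any 1 of the regular-medium replicates 6 of 20 rose. Without TIFM replicate 2, 7 of 20 rose and 4 fell, with a median log2 of 0.009. ASS1, which makes argininosuccinate on the route to arginine, went from 17.8, 19.6 and 18.0 CPM to 67.8, 79.9 and 67.4 CPM (log2 1.96 ± 0.15, adjusted p = 1.7e-10). ODC1, the first enzyme of polyamine synthesis, had fallen in hypoxia (log2 -0.87 ± 0.18, adjusted p = 0.00057) and rose in TIFM (log2 1.16 ± 0.18, adjusted p = 1.3e-05). Of 14 glutamine, glutamate and asparagine enzymes 8 rose and none fell (1 fell without TIFM replicate 2), and GFPT1, which diverts fructose 6-phosphate to hexosamines, was among the rises (log2 1.27 ± 0.11, adjusted p = 3.1e-09).

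The unfolded protein response rose in a part of its members, 12 of 22, with 3 that fell and a median log2 of 0.29. The falls were 1 without regular-medium replicate 1 or 2 or without TIFM replicate 3. XBP1, a transcription factor of this response, went from 40.7, 37.2 and 44.0 CPM to 119, 143 and 104 CPM (log2 1.59 ± 0.13, adjusted p = 1.1e-09), and HERPUD1, of the degradation machinery, from 55.9, 54.1 and 55.0 CPM to 143, 158 and 142 CPM (log2 1.43 ± 0.10, adjusted p = 5.0e-11). HSPA5, the main chaperone of the endoplasmic reticulum, rose less, from 712, 629 and 729 CPM to 1110.4, 1259 and 1120.4 CPM (log2 0.75 ± 0.09, adjusted p = 3.9e-07). The list shares its upstream eIF2 branch with the ATF4 list.

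Glucose uptake and many of the glycolytic enzymes after HK2 moved in opposite directions. Of 21 tested genes 18 had risen in hypoxia in regular medium, and in TIFM 4 of the 21 rose and 12 fell, with a median log2 of -0.50. The first steps rose: SLC2A1, the main glucose importer, went from 134, 128 and 154 CPM to 327, 426 and 299 CPM (log2 1.34 ± 0.15, adjusted p = 1.2e-07), SLC2A3, a high-affinity importer, from 2.49, 1.96 and 1.86 CPM to 13.4, 10.9 and 10.4 CPM (log2 2.46 ± 0.34, adjusted p = 2.4e-06) and HK2, which traps glucose as its phosphate, from 62.9, 49.98 and 63.4 CPM to 168, 166 and 145 CPM (log2 1.44 ± 0.16, adjusted p = 1.2e-07). SLC16A1, a lactate transporter and not a first step, was the fourth gene that rose (log2 0.25 ± 0.09, adjusted p = 0.035). Its call was lost under 7 of 14 alternatives.

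The glycolytic enzymes after HK2, from GPI on, fell or were not called. PGK1 went from 2939.5, 2887 and 2844 CPM to 1698, 1756 and 1659 CPM (log2 -0.76 ± 0.13, adjusted p = 5.3e-05), PGAM1 from 1338, 1386 and 1331 CPM to 725, 851 and 765 CPM (log2 -0.79 ± 0.16, adjusted p = 0.00022) and GPI from 380.5, 371 and 404 CPM to 227, 246 and 215 CPM (log2 -0.75 ± 0.13, adjusted p = 4.8e-05). PFKFB4, which sets the level of fructose 2,6-bisphosphate, went from 109, 107 and 118 CPM to 46.2, 49.5 and 40.5 CPM (log2 -1.29 ± 0.16, adjusted p = 5.0e-07), and SLC16A3, the lactate exporter of glycolytic cells, from 203, 203 and 236 CPM to 76.9, 116 and 59.0 CPM (log2 -1.35 ± 0.21, adjusted p = 1.4e-05). The 3 highly expressed enzymes GAPDH, ENO1 and PKM gave no call. GAPDH was at 4108, 4124 and 4449 CPM in regular medium and at 4437, 6369 and 4339.6 CPM in TIFM (log2 0.26 ± 0.16, adjusted p = 0.21), with ENO1 at log2 0.34 (adjusted p = 0.097) and PKM at log2 -0.32 (adjusted p = 0.18). For GAPDH replicate 2 in TIFM was the highest library. Against normoxia 16 of the 21 genes were still above and 3 below in hypoxic TIFM.

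TXNIP, an arrestin that restrains glucose uptake and is induced by glucose through MondoA and ChREBP, was among the 15 largest rises (chromosome 1, 145992435 to 145996600, minus strand, GRCh38). It stood at 12.8, 11.4 and 11.8 CPM in normoxia, then at 5.57, 5.43 and 7.14 CPM in regular medium and at 112, 125 and 90.6 CPM in TIFM (log2 4.18 ± 0.30, adjusted p = 7.6e-11). The related ARRDC4 rose as well (log2 1.5 ± 0.32, adjusted p = 0.00046). Of 8 glucose-sensing genes 4 rose and 1 fell, and none fell without regular-medium replicate 2 or 3 or TIFM replicate 2.

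Outside glycolysis, 37 of 39 hypoxia targets had risen in hypoxia (median log2 1.93), and in TIFM 15 of the 39 rose and 7 fell (21.8% and 20.4% of all genes did). NDRG1, a stress and metastasis-linked gene, went from 92.8, 88.0 and 91.8 CPM to 324, 371 and 318 CPM (log2 1.89 ± 0.17, adjusted p = 2.6e-09), ADM, the vasodilator adrenomedullin, from 196, 197 and 206 CPM to 579.9, 814 and 546 CPM (log2 1.69 ± 0.14, adjusted p = 9.4e-10) and VEGFA, the main vessel growth factor, from 390.4, 376 and 392 CPM to 807, 772 and 799.6 CPM (log2 1.04 ± 0.13, adjusted p = 1.1e-06).

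The hypoxia targets that fell in TIFM include P4HA1, a collagen prolyl hydroxylase (log2 -0.74 ± 0.13, adjusted p = 5.9e-05), and FAM162A, a mitochondrial protein (log2 -0.69 ± 0.08, adjusted p = 2.5e-07). PDK1, which blocks entry of pyruvate into the mitochondrion, was at 178, 162 and 184 CPM in regular medium and at 211, 188 and 207 CPM in TIFM (log2 0.21 ± 0.16, adjusted p = 0.31), and CA9, a pH regulator, was at 0.904, 1.08 and 0.843 CPM in regular medium and at 0.778, 0.676 and 0.63 CPM in TIFM (log2 -0.44 ± 0.53, adjusted p = 0.54), with 38.5% of its exon length shared with another gene. The factors themselves gave no call: HIF1A was at 128, 125 and 117 CPM in regular medium and at 155, 105 and 162 CPM in TIFM (log2 0.19 ± 0.16, adjusted p = 0.35) and EPAS1 at 526, 516 and 478 CPM in regular medium and at 562, 461 and 572 CPM in TIFM (log2 0.07 ± 0.13, adjusted p = 0.71). In hypoxic TIFM 37 of the 39 were above normoxia (26% of all genes were) and none below.

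**Figure D4:**
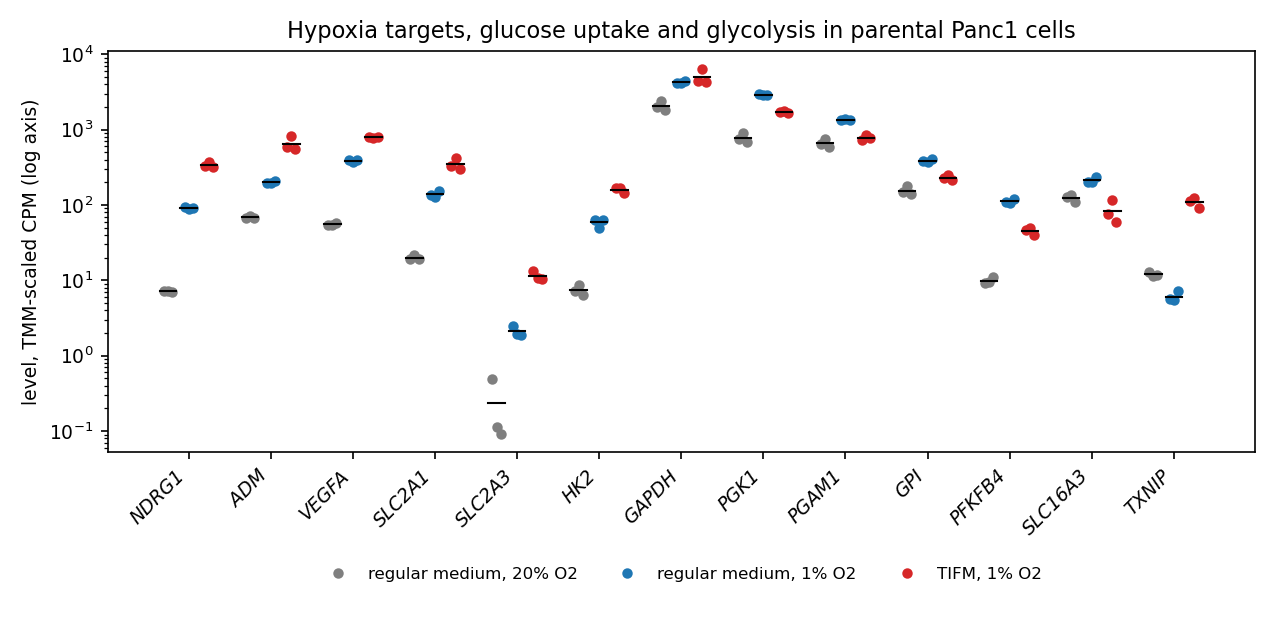
Points are the TMM-scaled CPM (log axis) of 13 hypoxia, glucose uptake and glycolysis genes in the 9 parental libraries, and black lines are group means (n = 3). NDRG1 to HK2 climb from normoxia to hypoxia to hypoxic TIFM, PGK1 to SLC16A3 climb in hypoxia and drop again in TIFM, and TXNIP is lowest in hypoxia and highest in TIFM.

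Of 14 iron genes 5 rose and 5 fell (35.7% each way, against 21.8% and 20.4% of all genes). TFRC, the transferrin receptor, whose mRNA is known to be lost when iron is ample, went from 1755, 1662 and 1718 CPM to 288, 183 and 316 CPM (log2 -2.70 ± 0.16, adjusted p = 2.2e-12). FTL, the ferritin light chain, went from 474, 520.4 and 500.2 CPM to 785, 1067 and 744 CPM (log2 0.80 ± 0.15, adjusted p = 0.00019), and FTH1, the heavy chain, from 215, 214 and 251 CPM to 351, 583 and 323 CPM (log2 0.89 ± 0.19, adjusted p = 0.00043), with 62.4% of the exon length of FTH1 shared with other genes. SLC11A2, an iron importer, fell (log2 -0.51 ± 0.09, adjusted p = 8.4e-05), and HMOX1, which frees iron from heme, rose (log2 1.22 ± 0.24, adjusted p = 0.00023). LCN2, a secreted siderophore binder, was near 0 in regular medium, at 0.0502, 0.0754 and 0.112 CPM. In TIFM it rose to 2.78, 5.91 and 4.56 CPM (log2 5.75 ± 0.49, adjusted p = 2.0e-09). Like NPC1L1, LCN2 passed the filter on low counts only through libraries where it was higher.

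DNA replication genes mostly rose. Of 30 tested 29 had fallen in hypoxia in regular medium (14.9% of all genes did), and in TIFM 18 rose and 1 fell, with a median log2 of 0.41; none fell without regular-medium replicate 3 or TIFM replicate 2. GINS2, of the replicative helicase, stood at 17.9, 20.8 and 16.5 CPM in normoxia and at 8.64, 6.94 and 8.10 CPM in regular medium and at 19.5, 24.3 and 22.6 CPM in TIFM (log2 1.49 ± 0.18, adjusted p = 3.1e-07). PCNA, the sliding clamp, went from 103, 109 and 109 CPM to 174, 222 and 179 CPM (log2 0.85 ± 0.12, adjusted p = 6.4e-06). Against normoxia 16 of the 30 genes were still lower in hypoxic TIFM and 2 were higher.

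Of 28 mitotic genes 7 rose and 7 fell in TIFM, which is 25% each way against 21.8% and 20.4% of all genes, after 26 had fallen in hypoxia. The median log2 was 0.17. These counts moved with every library left out. Without regular-medium replicates 1, 2 and 3 in turn, 3, 4 and 3 genes rose and 4, 3 and 4 fell. Without TIFM replicates 1, 2 and 3 in turn, 8, 2 and 6 rose and 4, 6 and 4 fell. UBE2C, which marks mitotic cyclins for destruction, went from 71.3, 68.7 and 75.9 CPM to 177, 261 and 166 CPM (log2 1.48 ± 0.16, adjusted p = 6.5e-08), while KIF20A, a kinesin of cytokinesis, went from 80.8, 82.9 and 77.9 CPM to 31.6, 38.2 and 30.3 CPM (log2 -1.27 ± 0.13, adjusted p = 2.4e-08). MKI67, the Ki-67 antigen, went from 392, 377 and 372 CPM to 251, 186 and 276 CPM (log2 -0.68 ± 0.20, adjusted p = 0.0093), a call lost without TIFM replicate 2 (adjusted p = 0.063). Among G1 regulators, CCND1 (cyclin D1) rose (log2 0.67 ± 0.14, adjusted p = 0.0004) and the CDK inhibitors CDKN1A (log2 -0.85 ± 0.17, adjusted p = 0.00035) and CDKN2C (log2 -1.34 ± 0.13, adjusted p = 1.2e-08) fell.

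Of 45 cytosolic ribosomal protein genes 36 rose and none fell, with a median log2 of 0.62; without TIFM replicate 2, 28 rose and 1 fell. RPL37 went from 262, 308 and 278 CPM to 616, 749 and 796 CPM (log2 1.35 ± 0.13, adjusted p = 1.3e-08) and RPS16 from 2633, 2961 and 2784 CPM to 4510.4, 6839 and 5135 CPM (log2 0.98 ± 0.18, adjusted p = 0.00012). Values also moved with gene length: the median log2 was 0.07 in the fifth of genes with the shortest exon length and -0.09 in the fifth with the longest, and ribosomal protein genes had a median exon length of 3617 bases against 5032.5 over all genes. The part of length in this list was not tested. Of 22 ribosome biogenesis genes 14 rose and 2 fell, with a median log2 of 0.55, and NOLC1, a nucleolar chaperone, was among the rises (log2 0.99 ± 0.13, adjusted p = 8.8e-07). Without TIFM replicate 2, 9 of the 22 rose and 1 fell, with a median log2 of 0.35, and 1 fell without any of the 3 regular-medium replicates.

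Of 24 epithelial and ductal markers 9 rose (37.5%) and 7 fell (29.2%), against 21.8% and 20.4% of all genes. Among the keratins of simple epithelia, KRT8 went from 4321, 4783 and 4398 CPM to 1298, 1516 and 1321 CPM (log2 -1.71 ± 0.25, adjusted p = 6.6e-06), KRT19 from 883, 918 and 922 CPM to 374, 570.1 and 318 CPM (log2 -1.11 ± 0.20, adjusted p = 9.9e-05) and KRT18 from 1743, 1917 and 1757 CPM to 820.1, 1046 and 856 CPM (log2 -0.99 ± 0.21, adjusted p = 0.0005). KRT7, a keratin of ducts at a much lower level, went the other way, from 6.13, 7.06 and 6.89 CPM to 7.21, 12.4 and 8.26 CPM (log2 0.47 ± 0.19, adjusted p = 0.046). The call of KRT7 was lost under 8 of 14 alternatives, among them leaving out any 1 regular-medium library and adding the replicate block (edgeR adjusted p = 0.0506). S100P, a calcium-binding protein common in pancreatic cancer (chromosome 4, 6693069 to 6697170, plus strand, GRCh38), was barely present in normoxia at 0.217, 0.309 and 0.247 CPM, and went from 1.56, 2.11 and 1.57 CPM to 32.9, 41.9 and 35.5 CPM in TIFM (log2 4.39 ± 0.23, adjusted p = 4.3e-13). OCLN, of the tight junction, rose (log2 1.00 ± 0.12, adjusted p = 7.0e-07), and CDH1, E-cadherin, was not called (log2 0.11 ± 0.14, adjusted p = 0.56).

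Of 21 cytokine and NF-kB target genes 5 rose (23.8%) and 6 fell (28.6%), near the shares of all genes. The rises were 3 without regular-medium replicate 1 or 2 or without TIFM replicate 2. IL11, a cytokine of the IL6 family, went from 1.18, 1.26 and 1.41 CPM to 5.45, 8.22 and 5.11 CPM (log2 2.29 ± 0.27, adjusted p = 3.3e-07). CCL2, the monocyte chemokine, went from 515, 574 and 468 CPM to 147, 82.2 and 214 CPM (log2 -1.81 ± 0.51, adjusted p = 0.0058), with TIFM libraries spread over more than 2-fold, and CSF1, the macrophage growth factor, from 346, 352 and 345 CPM to 144, 134 and 141 CPM (log2 -1.32 ± 0.33, adjusted p = 0.0026). CXCL6, a neutrophil chemokine at under 1 CPM, had the largest fall of the list (0.954, 0.779 and 0.675 CPM to 0.0898, 0.0356 and 0 CPM, log2 -4.05 ± 0.76, adjusted p = 0.00013). Of 15 genes of MHC class I presentation 6 rose (40%) and 2 fell (13.3%). HLA-B went from 68.7, 70.7 and 75.1 CPM to 137, 223 and 139 CPM (log2 1.22 ± 0.17, adjusted p = 2.2e-06), with 18.9% of its exon length shared, and HLA-E from 182, 184 and 192 CPM to 383, 472 and 364 CPM (log2 1.13 ± 0.13, adjusted p = 2.8e-07), while 2 of 21 interferon-stimulated genes rose and 3 fell.

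The largest changes outside the liver list and with a mean of at least 5 CPM also include genes outside these systems. DHRS2, a mitochondrial dehydrogenase (chromosome 14, 23630115 to 23645639, plus strand, GRCh38), was read at 0.326, 0.578 and 0.647 CPM in regular medium and at 9.52, 17.4 and 9.93 CPM in TIFM (log2 4.57 ± 0.28, adjusted p = 5.5e-12). LAMP3, a lysosomal membrane protein induced by stress, went from 12.1, 9.40 and 12.8 CPM to 76.1, 76.0 and 64.7 CPM (log2 2.66 ± 0.16, adjusted p = 2.2e-12). CCNP rose (log2 3.60 ± 0.32, adjusted p = 3.7e-09), as did STKLD1 (log2 3.25 ± 0.24, adjusted p = 1.5e-10), DMKN, an epidermal secreted protein (log2 2.72 ± 0.19, adjusted p = 3.3e-11), and BEX2 (log2 2.59 ± 0.21, adjusted p = 9.3e-10). Among the falls were SLCO4C1, an organic anion transporter raised by hypoxia, which went from 15.7, 12.8 and 14.7 CPM to 1.44, 0.89 and 1.59 CPM (log2 -3.46 ± 0.36, adjusted p = 4.2e-08), and MTRFR, a mitochondrial release factor, from 50.4, 56.0 and 39.2 CPM to 7.72, 6.62 and 9.26 CPM (log2 -2.62 ± 0.34, adjusted p = 1.3e-06).

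Liver transcripts were present in the TIFM libraries. ALB (albumin) had 101, 75 and 176 counts in TIFM and 0, 0 and 1 in regular medium. APOB (apolipoprotein B) had 83, 16 and 405 against 0, 0 and 1, and FGA (fibrinogen alpha) 27, 12 and 72 against 0 in all 3. FGA was at least 48.2-fold higher, taking 3 counts over the regular-medium group as the floor. With 1 count in the regular-medium group, the ALB ratio was 458 with a 95% counting interval from 81.7 to 18147, which covers counting error only.

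These transcripts were a small share of the libraries and varied within groups. The 34 liver genes summed to 26, 19.3 and 55.2 CPM in the TIFM libraries of parental cells and to between 7.51 and 8.36 CPM in regular medium. In clone A in TIFM they summed to 51.9 and 57.6 CPM in replicates 1 and 2 but to 7.26 CPM in replicate 3, where ALB had no count. In clone B they summed to between 5.15 and 8.04 CPM in TIFM, and to 21 CPM in 1 regular-medium library, hypoxia replicate 3, which held 117 counts of ALB. Of the 19 liver genes tested 11 rose and none fell, against 21.8% and 20.4% of all genes. Members near 0 in regular medium passed the count filter only through libraries where they were high. Some members that went down were too low to be tested, such as TAT (25 counts over regular medium and 5 over TIFM). The filter therefore shaped this count. Without the filter 13 of 31 rose and none fell. HP, VTN and RBP4 had no count in any of the 6 libraries.

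Few calls rested on such genes. Of the 3033 genes called higher 40 had at most 3 counts over the 3 regular-medium libraries (1.32%), and 9 of those 40 were on the liver list. None of the lists of cholesterol, fatty acid, amino acid response, glycolysis, hypoxia target, ribosomal protein, replication and mitosis genes held any of the 40. With the liver list removed before library sizes and scaling were computed, 5874 genes were called in place of 5881, and 5867 of them were called in the same direction in both. Without TIFM replicate 3, the library of these 6 with the most liver counts, 20 of 22 cholesterol genes fell and 33 of 37 amino acid response genes rose.

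**Figure D5:**
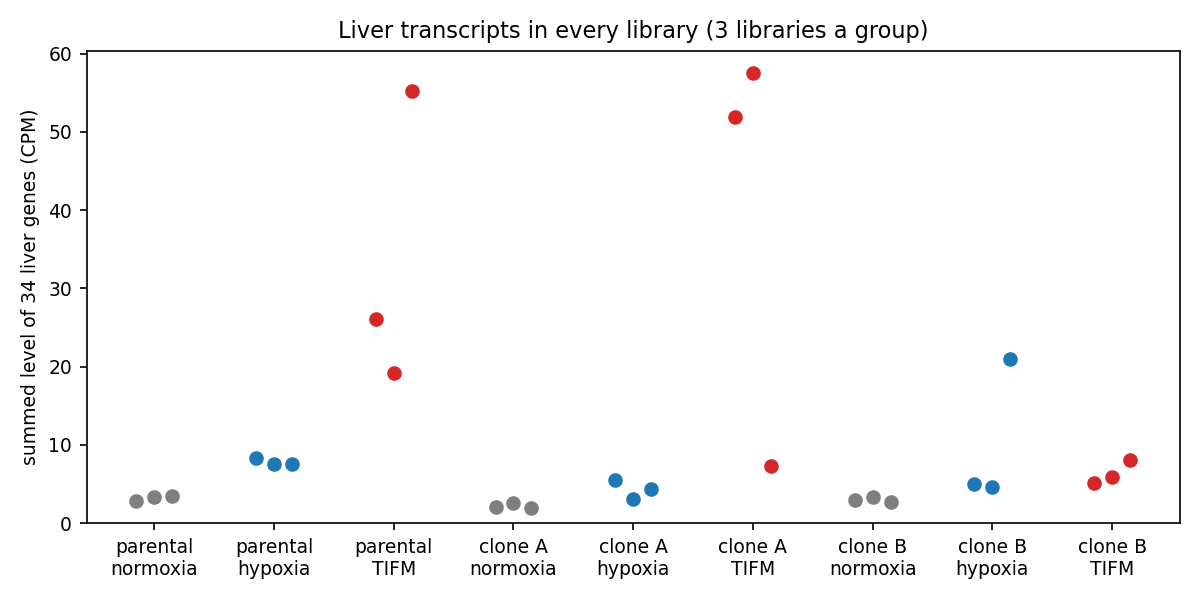
Points are the summed level (CPM) of 34 liver genes in each of the 27 libraries, 3 a group, with grey for normoxia, blue for hypoxia in regular medium and red for hypoxia in TIFM. The sum is raised in the 3 parental TIFM libraries (19.3 to 55.2 CPM), in 2 of the 3 clone A TIFM libraries and in 1 clone B library in regular medium, and in no clone B TIFM library.

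The medium response was also measured in the ARNT knockout clones, and each clone was tested against the parental cells for a different response. A difference was called for 5426 genes in clone A (38.9%; 19.3% with a higher and 19.6% with a lower clone response) and for 1450 in clone B (10.4%; 4.06% higher and 6.34% lower). Replicates of clone A in TIFM were the loosest of the 3 TIFM groups. Their biological coefficient of variation was 29.3%, against 17.3% for clone B and 17.4% for parental cells in TIFM. The clone response was higher than the parental one for 14 of the 22 cholesterol genes in clone A, where none was lower. In clone B it was higher for 7 and lower for 1. Higher here means a more positive log2 change, which for a falling gene is a smaller fall. The median log2 change of this list was -1.93 for the parental line, -1.22 for clone A and -1.525 for clone B. By its median the list fell less in both clones. The difference was called in both clones for DHCR7 (log2 2.06 ± 0.20, adjusted p = 3.0e-08 for clone A, log2 0.91 ± 0.20, adjusted p = 0.004 for clone B). STARD4 had log2 changes of -3.30 (parental), -3.51 (clone A) and -2.91 (clone B), and its difference was not called (log2 -0.21 ± 0.28, adjusted p = 0.59 for clone A, log2 0.39 ± 0.28, adjusted p = 0.41 for clone B).

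For 10 of 37 amino acid response genes the response to TIFM was higher in clone A and for 5 lower. Over all genes 19.3% were higher and 19.6% lower. In clone B it was higher for 2 of the 37 and lower for 6, against 4.06% and 6.34% of all genes. PSAT1 rose by log2 1.82 in the parental line, by 1.67 in clone A and by 1.84 in clone B. For mitotic genes the response was lower in clone A for 22 of 28 members and in clone B for 14, and higher in neither. The shares of all genes with a lower response were 19.6% in clone A and 6.34% in clone B. Both clone comparisons subtract the same 6 parental libraries, so their counts for a list are not independent of each other. Each knockout line is 1 clone, so a difference from parental cells and a difference of that clone cannot be told apart.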

How the data were processed

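PolyA RNA-seq libraries were grouped by the labels into 9 groups of 3. The authors deposited raw counts per gene, not normalized; reads were aligned with HISAT2 to GRCh38 and counted with featureCounts, per the submitters' processing notes. For their versions, strandedness and annotation: not given in the sources used here. Counts of all 27 libraries were fitted together in edgeR 4.0.16 (R 4.3.3; filterByExpr with a minimum count of 10 and a minimum total of 15, TMM scaling, robust quasi-likelihood test, Benjamini-Hochberg adjustment over 13943 genes, threshold 0.05), after the procedure was tested on simulated data. Gene positions are from GENCODE (GRCh38), and promoters from RefSeq (GRCh38.p14). Alternatives used DESeq2 1.42.0, limma 3.58.1, other filters and scaling, a replicate block, removal of the liver list and leaving out each library.

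Named genes were the 15 largest rises and 15 largest falls with a mean of at least 5 CPM and no overlap outside the liver list, up to 10 rises, 10 falls and 5 uncalled members of each list, liver genes with a count, the 10 genes with the highest mean CPM in TIFM, a set of always-named genes and up to 10 genes per clone comparison. Members and lists were chosen with earlier results of these data known. The labels give groups the same replicate numbers. Deviations from the group means correlated between same-numbered normoxia and TIFM libraries (0.216, 0.519 and 0.378), but not throughout between hypoxia and TIFM libraries. With 3 libraries a group, such correlations cannot show whether equal numbers mark real pairs. Sequencing depth limits calls at low counts. Values of some genes are not reported here.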

Additional observations from a re-analysis of the deposited data

Results flagged for a closer look

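The response to TIFM under hypoxia differed between the parental cells and each ARNT knockout clone by a test of the difference itself, in edgeR's quasi-likelihood fit over all genes. The difference was called for 5426 genes in clone A (2691 with a higher clone response and 2735 with a lower one) and for 1450 genes in clone B (566 higher and 884 lower). The genes below are the 5 with the strongest test in each clone. In clone A the response of MBOAT1, a lysophospholipid acyltransferase, was lower than in parental cells by a log2 difference of -3.16 ± 0.20, with changes of -2.99 in the clone and 0.17 in parental cells. ARF4, a small GTPase of the Golgi, had a difference of 1.98 ± 0.13, with 3.09 in the clone and 1.11 in parental cells. The differences of KRCC1 (-2.99 ± 0.21), KLHL4 (-2.66 ± 0.18) and ANTXR1 (-2.13 ± 0.15) were negative as well, with clone changes of -4.21, -3.17 and -2.76.

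In clone B the change of RASSF4 was -1.77 against 1.01 in parental cells, a difference of -2.79 ± 0.21, and that of SNX33 was -1.06 against 1.06, a difference of -2.12 ± 0.21. RPS6KA2, a ribosomal S6 kinase, rose less in the clone, at 0.69 against 2.04, a difference of -1.35 ± 0.13. C15orf48 fell more, at -2.99 against -0.76 (-2.23 ± 0.22), and CHD1L changed by -0.88 against 0.13 (-1.01 ± 0.10). Each line is 1 clone, and no explanation was tested.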

How the results depend on the processing

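The count of genes called for TIFM under hypoxia (5881) was 4623 to 8543 over the alternatives, within 1.5 times of the main count, and no gene called in both was called in the opposite direction. It was 6087 with DESeq2, 8543 with limma, 5625 without a filter, 4623 when genes under a mean of 5 CPM were dropped, 5874 without the liver list and 4949 to 5401 when 1 library was left out. Other comparisons moved further. With limma the counts were 8335 for clone A minus parental, 4810 for clone B minus parental and 8915 for hypoxia, and with only the compared libraries fitted they were 3539 for clone A and 6804 for hypoxia. For clone A, leaving out 1 library gave 4662 (without parental TIFM replicate 1) to 6788 (without clone A TIFM replicate 1). For clone B, leaving out 1 library gave 933 (without parental hypoxia replicate 1) to 1456. The cause was not tested.

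With the replicate number as a block, 6006 genes were called for TIFM under hypoxia, 5564 for clone A, 1502 for clone B, 4308 for hypoxia and 7122 for hypoxic TIFM against normoxia (6995 without the block). Hypoxia and TIFM libraries of the same number correlated at 0.259, 0.0016 and -0.289, and replicate 1 alone matched its own number best. These few libraries cannot show whether equal numbers mark real pairs.

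Of 152 genes named in the text and tested 136 were called for TIFM under hypoxia, and 128 of these kept their direction and call in every alternative run (12 to 14 a gene). The 8 that lost the call in at least 1 were DDIT3, EPCAM, FADS3, FGA (adjusted p = 0.138 with DESeq2), KRT7, MKI67, NQO1 and SLC16A1. Of those not called, 8 were called in at least 1 alternative (CD14, CHD1L, ENO1, HIF1A, PDK1, PKM, PMVK and SESN2). None of the 152 reversed direction with a call in the main fit or in the alternative. CDH1, PMVK, SLC38A2 and CD68, not called in the main fit, changed sign in at least 1 alternative. Depth limits genes at a few counts, and 3 libraries a group limit all tests.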

Other observations

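The counts of the remaining gene lists are read against all genes tested, of which 21.8% rose and 20.4% fell. Of 19 genes of FOXO signalling and growth-factor withdrawal 8 rose (42.1%) and 1 fell (5.26%), with 2 falls without TIFM replicate 1 or 3. IRS2, an adaptor of the insulin receptor, went from 22.6, 21.6 and 21.6 CPM to 59.7, 51.6 and 54.6 CPM (log2 1.33 ± 0.13, adjusted p = 1.9e-08), and the insulin receptor INSR rose as well (log2 1.03 ± 0.21, adjusted p = 0.00037), while CCNG2 fell (log2 -1.15 ± 0.13, adjusted p = 1.9e-07). Of 14 mTORC1 brakes and nutrient sensors 6 rose (42.9%) and 2 fell (14.3%), with 1 fall without regular-medium replicate 1 or 2 or TIFM replicate 2. EIF4EBP1, the repressor of cap-dependent translation, went from 14.7, 15.6 and 15.5 CPM to 37.6, 57.6 and 37.4 CPM (log2 1.53 ± 0.17, adjusted p = 1.7e-07), and NPRL2, a subunit of the amino acid sensing complex GATOR1, rose (log2 1.20 ± 0.16, adjusted p = 1.9e-06). TSC2, which restrains mTORC1, fell (log2 -0.63 ± 0.15, adjusted p = 0.0015). Of 28 autophagy and lysosome genes 10 rose (35.7%) and 4 fell (14.3%), with 2 falls without regular-medium replicate 1. PSAP, the precursor of the saposins and 1 of the 10 genes with the highest mean CPM in TIFM, went from 2536, 2429 and 2599 CPM to 5669, 6801 and 5625 CPM (log2 1.26 ± 0.14, adjusted p = 7.7e-08), and SQSTM1, the cargo receptor p62, rose (log2 0.90 ± 0.15, adjusted p = 3.4e-05).

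Of 25 genes of lipid droplets and fatty acid breakdown 6 rose (24%) and 5 fell (20%), which is near the shares of all genes. CPT2, of fatty acid import into mitochondria, fell (log2 -1.74 ± 0.25, adjusted p = 4.3e-06), and PNPLA2, the lipase that opens lipid droplets, rose (log2 1.24 ± 0.19, adjusted p = 1.3e-05). Of 20 early response factors 10 rose (50%) and 3 fell (15%). FOSL1 went from 39.1, 39.4 and 48.0 CPM to 105, 195 and 80.3 CPM (log2 1.59 ± 0.31, adjusted p = 0.00023) and KLF4 from 13.4, 14.7 and 12.2 CPM to 35.4, 34.9 and 43.5 CPM (log2 1.5 ± 0.21, adjusted p = 3.2e-06), while EGR1, at a low level, went from 4.97, 5.08 and 3.54 CPM to 0.689, 1.89 and 1.30 CPM (log2 -1.83 ± 0.29, adjusted p = 2.1e-05). MYC rose (log2 0.75 ± 0.13, adjusted p = 5.0e-05). Of 16 mesenchymal genes 7 rose (43.8%) and 1 fell (6.25%), with 2 falls without TIFM replicate 2. AXL, a receptor kinase, went from 135, 124 and 143 CPM to 336, 405 and 294 CPM (log2 1.37 ± 0.18, adjusted p = 1.5e-06), and VIM (vimentin) fell from 4329.5, 4312 and 4443 CPM to 2892, 3843 and 2675 CPM (log2 -0.48 ± 0.13, adjusted p = 0.0046). Of 26 collagen and matrix genes 8 rose (30.8%) and 4 fell (15.4%). The rises were 5 without regular-medium replicate 2 or TIFM replicate 2, and the median log2 turned from 0.26 to -0.04 without TIFM replicate 1. Of 13 genes of the plasminogen system and matrix proteases 5 rose and 2 fell, with 1 fall without regular-medium replicate 1 or 2 or TIFM replicate 1 or 3.

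Of 23 NRF2 targets and glutathione genes 7 rose (30.4%) and 4 fell (17.4%), with 2 falls without regular-medium replicate 2 or 3 or TIFM replicate 1 or 3. The risers include SLC7A11, CHAC1 and HMOX1, which other lists share, and NQO1, a classic NRF2 target, fell (log2 -0.40 ± 0.14, adjusted p = 0.023). That call was lost when any of 4 of the 6 libraries was left out (parental hypoxia replicates 2 and 3 and TIFM replicates 1 and 3; edgeR adjusted p up to 0.0883). Of 36 nuclear-encoded respiratory chain genes 11 rose (30.6%) and 5 fell (13.9%). The rises were 7 without regular-medium replicate 1 or 3 or TIFM replicate 3, the falls were 3 without TIFM replicate 1, and 8 rose and 7 fell without TIFM replicate 2. Of 13 mitochondrial DNA-encoded transcripts 1 rose and none fell, and none rose when any library but TIFM replicate 1 was left out. Of 16 p53 targets 4 rose (25%) and 3 fell (18.8%), near the shares of all genes, with AEN up (log2 1.30 ± 0.20, adjusted p = 1.4e-05) and MDM2 down (log2 -0.61 ± 0.16, adjusted p = 0.0035). Of 15 cytosolic heat shock genes 5 rose and 1 fell, with 3 rises without any 1 of the regular-medium libraries or TIFM replicate 2 and 2 falls without TIFM replicate 2 or 3. Of 9 genes of metallothioneins and zinc transport 3 rose and 1 fell, with 1 rise without TIFM replicate 2. Of 18 G1 cyclins and CDK inhibitors 4 rose and 5 fell, with 3 falls without regular-medium replicate 2 or 3 or TIFM replicate 2. Of 7 HIF subunits and oxygen sensors 3 rose and 1 fell, and none fell when any 1 of the 6 libraries was left out. Markers of other cell types held few calls: 1 of 3 acinar and endocrine markers and 1 of 4 endothelial markers rose, and 1 of 6 blood and immune and 1 of 8 fibroblast markers fell. The endothelial rise was lost without regular-medium replicate 1 or TIFM replicate 1 and there were 2 without TIFM replicate 2, and 2 fibroblast markers fell without TIFM replicate 1.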
